A study of Mus musculus with 6 samples.

Results

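The genes described here are those of cholesterol synthesis, uptake and efflux: 33 symbols chosen by name, of which the count table held 32 among its 24197 genes. The remaining symbol, Sc4mol, is the older name of Msmo1, which the table listed. Of the 32 genes, 31 had enough counts to be tested and Hmgcs1, the cytosolic synthase that commits acetoacetyl-CoA to the mevalonate pathway, did not: it was listed at 0 in all 6 libraries. Whether these zeros come from the authors' annotation or counting or from the cells could not be settled, so they are given as listed and not as a level of the gene. Hmgcs1 enters no expression comparison and appears below only among the promoters. The RNA came from C57BL/6 mouse stromal-vascular cells, the non-adipocyte fraction of inguinal adipose tissue, grown in standard medium. One group is labelled control (puro) and the other Prdm16 retrovirus; Prdm16 encodes a transcription factor that drives the brown and beige adipocyte programme. Polyadenylated RNA was sequenced in 3 libraries per group, with 28169059 to 35798201 counts each. The labels used here do not state age, sex, time after transduction, viral promoter, or whether replicates were separate cultures. The p-values therefore reflect the spread among these libraries alone, and that spread may be technical.

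Cells keep their membrane cholesterol steady through a pair of opposed transcriptional programmes. When sterol in the endoplasmic reticulum is low, the escort protein SCAP carries the membrane-bound factor SREBP2 (gene Srebf2) to the Golgi, where it is cut and released to switch on the enzymes of synthesis and the proteins of uptake; the INSIG proteins hold SCAP back when sterol is plentiful. When oxidised sterols accumulate, the liver X receptors (LXR) switch on the exporters ABCA1 and ABCG1, the acceptor apolipoprotein E and the ubiquitin ligase MYLIP, which marks lipoprotein receptors for degradation.

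Levels are given as CPM, the counts scaled to a common TMM-adjusted library size, and as mean ± SD with n = 3. Differences are log2 fold changes of Prdm16 over puro ± SE from edgeR's quasi-likelihood test, with p-values adjusted by Benjamini-Hochberg over 13805 genes and called at 0.05. The difference between the groups was broad: 75.6% of all tested genes were called, 37.5% as higher and 38.0% as lower, and 77.6% had groups that did not overlap. A call in either direction was therefore the usual outcome for any gene, and the direction and the size carry the description. Whether the groups also differed in anything other than Prdm16 was not tested. Prdm16 itself was at 0.452, 0.631 and 0.745 CPM in the puro libraries and at 2796, 2505 and 2668 CPM in the Prdm16 libraries, as the labels say. Fewer cells of a type and less RNA per cell cannot be told apart in these bulk libraries. Marker lists showed which other cells could be present: among 10 macrophage markers Emr1, C1qa and C1qb were at 0 in all libraries and the summed level was 14.2 to 15.4 CPM in puro and 8.45 to 8.66 CPM in Prdm16 libraries, and all 6 lymphocyte markers were too low to be tested. The 10 stromal and progenitor markers summed to 7627 to 8281 CPM in puro and 3267 to 3554 CPM in Prdm16 libraries (6 of 9 tested lower, 2 higher). Most of this sum was the collagen genes Col3a1 (mean 5007 to 1880 CPM) and Col1a1 (1705 to 145 CPM). Pdgfrb, Cd34, Thy1 and Dcn were also lower, Ly6a (376 to 988 CPM) and Lum were higher, and Pdgfra did not pass. The 7 adipocyte markers summed to 157 to 167 and 611 to 706 CPM (4 of 5 tested higher, 1 lower). Most of the adipocyte sum was Fabp4, at means of 115 CPM in puro and 551 CPM in Prdm16 libraries, and Plin1 and Lep were too low to be tested. Summed levels of the other lists, puro first, were 0.287 to 0.358 and 21.04 to 22.8 CPM for mammary epithelium. Of its 7 markers Epcam, Krt18 and Cdh1 were higher, and Krt8, Krt14, Krt5 and Elf5 were too low to be tested. Endothelium had 3.32 to 3.78 and 9.37 to 12.2 CPM, with Cdh5 and Cldn5 at 0 throughout. Of its 3 tested markers Tek rose (mean 1.19 to 10.2 CPM), Vwf fell (1.78 to 0.298 CPM) and Kdr did not pass. The pericyte markers had 27.9 to 36.4 and 1.92 to 2.33 CPM, with Kcnj8 at 0. Nearly all of this sum was Cspg4, at means of 31.3 and 2.01 CPM. Rgs5 was at 0.430 and 0.0499 CPM, and Abcc9 was too low to be tested. The part of these shifts in the results below was not tested.

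Synthesis genes were higher in the Prdm16 libraries nearly throughout. Of the 17 tested enzymes from acetyl-CoA to cholesterol 15 rose, 1 fell and 1 did not pass, against 37.5% higher and 38.0% lower among all tested genes. Their median log2 fold change was 0.57, beside −0.01 over all tested genes. The changes were moderate: 1 enzyme passed a doubling upwards and 1 downwards, where 9.69% and 12.1% of all tested genes did so. In each of the 15 that rose, all 3 Prdm16 libraries lay above all 3 puro libraries, an arrangement seen for 38.4% of all tested genes, while 39.2% had all Prdm16 libraries below.

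The mevalonate arm, which builds isoprenoid units from acetyl-CoA and joins them to farnesyl pyrophosphate, rose in 6 of 6 tested members, with log2 fold changes from 0.40 to 0.95 (median 0.61). Acat2, the cytosolic thiolase that makes acetoacetyl-CoA, was at 48.2, 49.2 and 42.9 CPM in the puro libraries and at 80.9, 93.6 and 96.7 CPM in the Prdm16 libraries. The groups were well apart, and Acat2 was 1.93-fold higher (log2 fold change 0.95 ± 0.07, adjusted p = 3.19e-07), a value that is uncertain as far as reads were shared with its near-identical copy Acat3. Idi1, the isomerase that interconverts the isoprenoid units, stood at 22.6, 22.0 and 18.4 CPM against 35.6, 42.8 and 42.6 CPM (0.94 ± 0.09, adjusted p = 2.39e-06). Fdps, the synthase of farnesyl pyrophosphate, had 107, 108 and 87.8 CPM against 145, 174 and 187 CPM (0.74 ± 0.10, adjusted p = 3.11e-05). In all 3 genes the third puro library was the lowest of its group and the first Prdm16 library the lowest of its own. The kinases and the decarboxylase between them moved less. Mevalonate kinase, Mvk, rose from 25.9 ± 1.06 to 36.0 ± 2.75 CPM (n = 3, SD; 0.48 ± 0.06 in log2), phosphomevalonate kinase, Pmvk, from 40.9 ± 1.62 to 54.2 ± 4.38 CPM (0.41 ± 0.06), and the decarboxylase Mvd from 23.0 ± 1.62 to 30.5 ± 2.60 CPM (0.40 ± 0.07).

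The sterol arm, which joins farnesyl units to squalene, closes the ring and trims lanosterol to cholesterol, rose in 9 of 11 members, with a median log2 fold change of 0.57. Fdft1, the squalene synthase that commits farnesyl pyrophosphate to sterols, had the highest fold change of all members as fitted. With chromosome medians removed it had 0.91, below Idi1 (0.95), Fdps (0.94) and Sqle (0.92). Fdft1 was at 53.9, 55.2 and 43.8 CPM in the puro libraries and at 125, 134 and 144 CPM in the Prdm16 libraries (2.63-fold, log2 fold change 1.40 ± 0.08, adjusted p = 3.80e-08). In the reference annotation 20.9% of the exon bases of Fdft1 are shared with the abundant lysosomal protease gene Ctsb on the opposite strand, which itself had a log2 fold change of 0.75 ± 0.04; whether reads were counted by strand is not stated, so reads of this pair cannot be told apart with certainty. Msmo1, an oxidase in the removal of sterol methyl groups, was at 84.0, 86.7 and 68.9 CPM against 127, 163 and 164 CPM (0.92 ± 0.10, adjusted p = 9.13e-06). Dhcr7, the reductase of a final step, was at 17.7, 16.5 and 14.4 CPM against 25.9, 28.9 and 29.5 CPM (0.79 ± 0.08, adjusted p = 4.28e-06). The lowest library of each group was again the third puro and the first Prdm16 library in all 3 genes.

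The remaining enzymes of this arm that rose lay between log2 fold changes of 0.31 and 0.72. Squalene epoxidase, Sqle, a rate-limiting step, had 132, 133 and 113 CPM in the puro and 161, 193 and 193 CPM in the Prdm16 libraries (0.54 ± 0.08, adjusted p = 7.88e-05). Lanosterol synthase, Lss, which closes the ring, had 0.66 ± 0.07, and the demethylase Cyp51 had 0.47 ± 0.07. Tm7sf2, a sterol reductase at a low 4.01 ± 0.322 CPM in puro libraries (SD, n = 3), had 0.72 ± 0.10, the dehydrogenase Nsdhl 0.57 ± 0.09 and the desaturase Sc5d 0.31 ± 0.08 (adjusted p = 0.00483). Per kilobase of median annotated transcript, the puro levels of the synthesis enzymes ran from 2.97 CPM for Tm7sf2 to 77.2 CPM for Fdps, and both ends of this scale rose. Exon overlaps with other counted genes covered 8.16% of Lss, 4.22% of Cyp51 and 0.826% of Tm7sf2.

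A pair of sterol enzymes departed from the rest. Ebp, the isomerase that shifts a double bond of the sterol ring, fell: it was at 46.0, 45.2 and 43.4 CPM in the puro libraries and at 17.9, 16.1 and 16.1 CPM in the Prdm16 libraries (2.69-fold lower, log2 fold change −1.43 ± 0.06, adjusted p = 1.41e-09). The groups were far apart, and the drop was close in size to the rise of Fdft1 as fitted. With chromosome medians removed the drop was the larger, at −1.44 against 0.91 for Fdft1. Hsd17b7, a keto-reductase of sterol demethylation, had 33.1, 32.0 and 27.4 CPM against 26.4, 31.6 and 32.3 CPM, and its groups overlapped. Its log2 fold change of −0.04 ± 0.09 did not pass (adjusted p = 0.713), and the 95% interval from −0.23 to 0.16 lay below the estimates of all enzymes that rose.

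**Figure D1:**
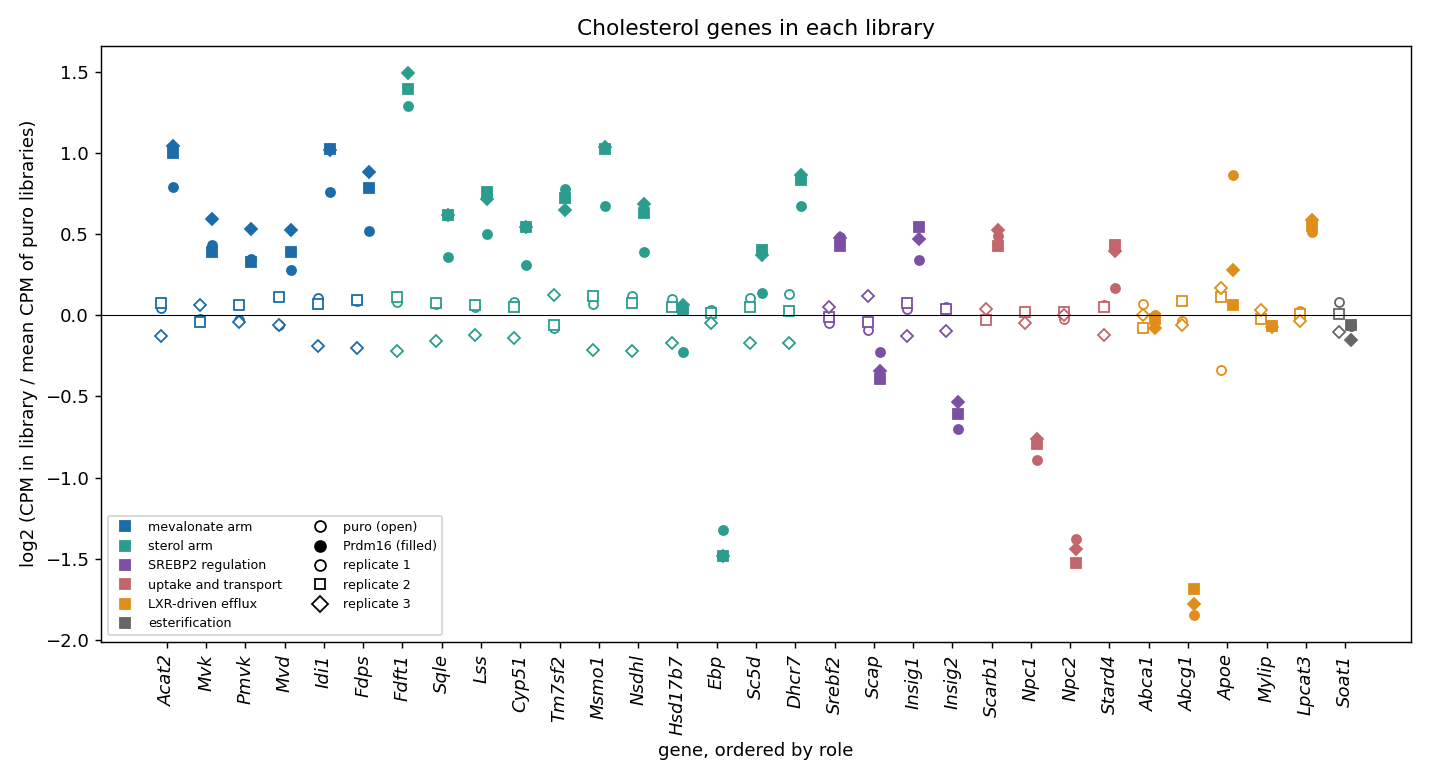
Each point is the level of a tested gene in 1 library, as log2 of its CPM over the mean CPM of the puro libraries (vertical axis), for genes ordered and coloured by role (horizontal axis); open symbols are puro, filled symbols Prdm16, and the shape gives the replicate. The 15 synthesis enzymes that rose sit above the line in all 3 Prdm16 libraries, Ebp, Npc2 and Abcg1 sit far below it, and Abca1, Mylip and Soat1 stay near it.

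Summed over the 17 tested enzymes, the level was 949, 952 and 819 CPM in the puro libraries and 1241, 1444 and 1484 CPM in the Prdm16 libraries, a ratio of means of 1.53. The mevalonate arm summed to 266, 272 and 238 CPM against 377, 426 and 458 CPM, and the sterol arm to 683, 680 and 581 CPM against 865, 1018 and 1026 CPM. Within the groups the enzymes also varied together. Puro replicate 3 was the lowest puro library for 14 of the 17 enzymes, where it was so for 43.3% of all tested genes, and Prdm16 replicate 1 was the lowest Prdm16 library for 13 of 17, against 36.2%. With both of these libraries left out, an alternative chosen after seeing this, 6 mevalonate and 9 sterol enzymes were still higher and 1 lower.

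Gene position along the genome moved with some of these values. The median log2 fold change of all tested genes was 0.49 on chromosome 14, 0.39 on chromosome 19, 0.18 on chromosome 5, −0.20 on chromosome 3, −0.38 on chromosome 15 and −0.41 on chromosome 18. When each gene's chromosome median was removed, Fdft1 (chromosome 14) had 0.91 (adjusted p = 1.57e-06), Tm7sf2 (chromosome 19) 0.33, Mvk and Cyp51 (both chromosome 5) 0.30 and 0.29, and Sqle (chromosome 15) 0.92. All 15 enzymes still passed as higher and Ebp as lower, with Ebp at −1.44.

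**Figure D2:**
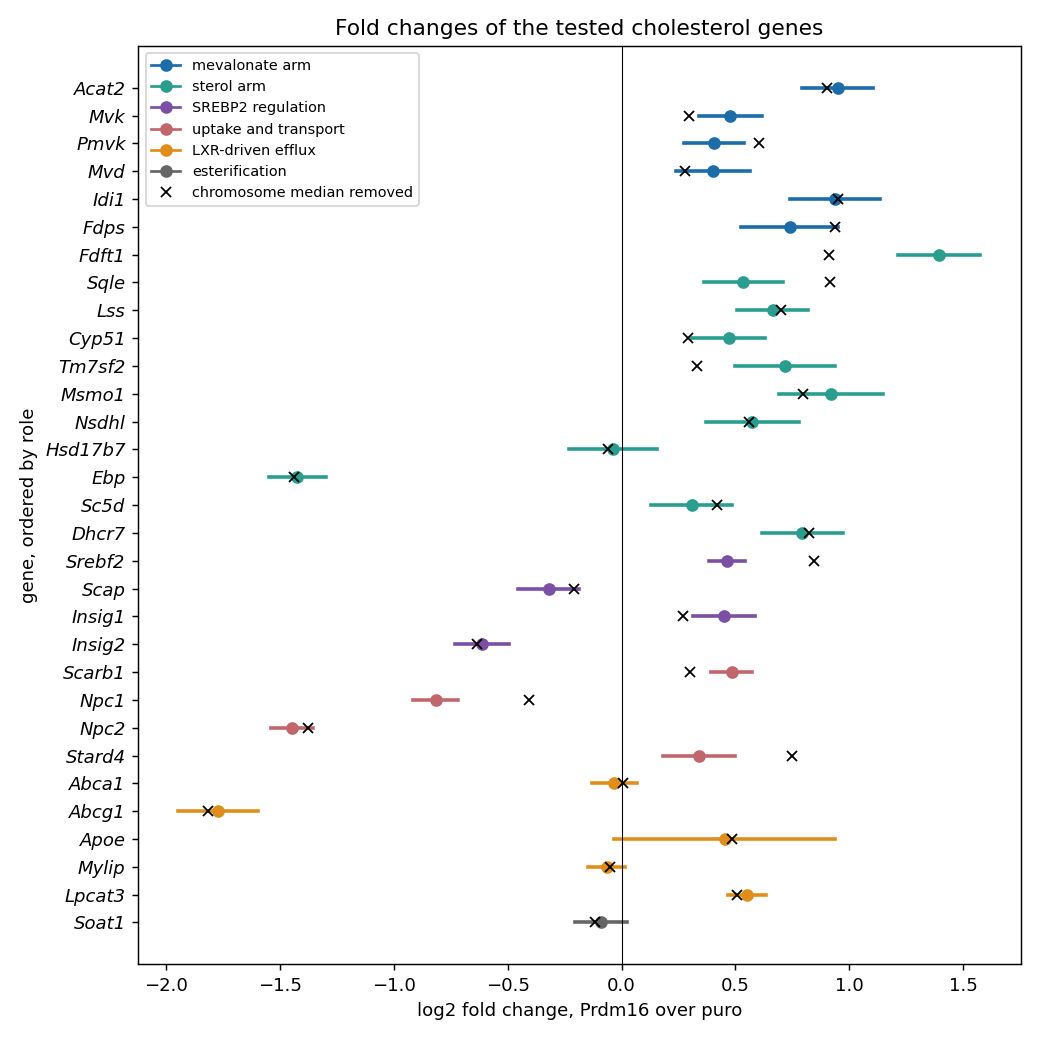
Circles are log2 fold changes of Prdm16 over puro (horizontal axis) for the 31 tested genes, ordered and coloured by role (vertical axis), with bars for the 95% interval of the quasi-likelihood fit; crosses are the values after removal of each chromosome's median. Crosses and circles lie furthest apart for Fdft1, Tm7sf2, Sqle, Srebf2, Npc1 and Stard4, and no called gene changes side.

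Because the enzymes moved together, the bases upstream of their annotated starts were read, 250 per entry, from RefSeq's promoter table of build GRCm38.p6; the counts were made on mm9, and no count was taken by position. The table matched 25 of the 32 genes, and Fdps, Fdft1, Sqle, Scarb1, Npc1, Stard4 and Abcg1 were not matched. SREBP2 is known to bind sterol regulatory elements together with NF-Y, which recognises CCAAT, and with Sp1, which recognises GGGCGG. The first of these, CCAAT, was found on either strand upstream of 14 of 15 matched synthesis genes, against 37.5% of all genes in the table and 40.6% of tested genes; 33.8% of all promoter entries of this length hold it, and 14 of the 18 entries of these genes (77.8%). GGGCGG was also found for 14 of 15, against 35.4% of all and 64.3% of tested genes (32.7% of all entries), and CACCCCAC, the core of the classical sterol element, for 2 of 15 (Acat2 and Hmgcs1), against 2.98% and 3.33% (2.58% of all entries). The members outside the synthesis arms held CCAAT in 7 of 10 matched genes and GGGCGG in 8 of 10. Each motif was searched on both strands and counted on its own, whether or not it overlapped another. The 14 with CCAAT included Ebp, which fell, and Hsd17b7, which did not pass, so the motif did not divide the enzymes by direction. Shown are the enzyme with the largest rise of its arm among matched genes (Acat2, Msmo1), the promoter with most CCAAT matches (Mvk, 5) and that of the enzyme that fell (Ebp), 5′ to 3′ on the gene's strand, with CCAAT or its complement ATTGG, and CACCCCAC, in capitals.
Acat2 (chr17:12960726-12960975, minus strand): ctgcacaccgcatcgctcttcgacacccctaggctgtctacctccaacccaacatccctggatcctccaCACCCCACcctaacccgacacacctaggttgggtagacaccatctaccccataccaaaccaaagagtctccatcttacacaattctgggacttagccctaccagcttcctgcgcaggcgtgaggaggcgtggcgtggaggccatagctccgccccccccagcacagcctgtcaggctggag
Msmo1 (chr8:64733579-64733828, minus strand): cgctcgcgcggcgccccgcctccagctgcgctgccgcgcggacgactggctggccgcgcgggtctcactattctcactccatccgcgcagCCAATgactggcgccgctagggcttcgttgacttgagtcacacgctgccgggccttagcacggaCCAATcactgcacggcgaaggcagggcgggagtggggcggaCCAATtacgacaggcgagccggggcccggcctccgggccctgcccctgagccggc
Mvk (chr5:114444019-114444268, plus strand): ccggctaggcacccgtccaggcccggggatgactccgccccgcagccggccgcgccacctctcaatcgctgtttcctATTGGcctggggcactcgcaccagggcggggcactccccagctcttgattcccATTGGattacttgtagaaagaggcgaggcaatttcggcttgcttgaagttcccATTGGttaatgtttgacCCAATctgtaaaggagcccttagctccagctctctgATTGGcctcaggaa
Ebp (chrX:8193513-8193762, minus strand): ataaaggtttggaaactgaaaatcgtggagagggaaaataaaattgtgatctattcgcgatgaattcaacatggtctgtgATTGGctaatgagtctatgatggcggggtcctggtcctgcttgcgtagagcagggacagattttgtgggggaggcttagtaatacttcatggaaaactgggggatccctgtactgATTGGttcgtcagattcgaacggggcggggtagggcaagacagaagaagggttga

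Acat2 held 1 sterol element core and no CCAAT, Msmo1 held 3 CCAAT matches and Ebp 2. A match of letters is a description and not a bound site.

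Of the 4 regulators of SREBP2, 2 were higher and 2 lower, beside 37.5% higher and 38.0% lower among all tested genes. Srebf2, which encodes the factor itself, was at 338, 346 and 362 CPM in the puro and at 487, 469 and 486 CPM in the Prdm16 libraries (log2 fold change 0.46 ± 0.04, adjusted p = 4.58e-07). Insig1, the retention protein that is itself an SREBP2 target, was at 134, 138 and 120 CPM against 165, 190 and 181 CPM (0.45 ± 0.06, adjusted p = 4.79e-05). Both rose without overlap of the groups. Insig2, the retention protein that is not induced by SREBP2, fell, from 70.7, 70.2 and 64.0 CPM to 42.1, 44.8 and 47.2 CPM (−0.61 ± 0.05, adjusted p = 1.20e-06). Scap, the escort, fell slightly, from 100.2, 104 and 116 CPM to 91.1, 81.1 and 83.9 CPM (−0.32 ± 0.06, adjusted p = 5.81e-04).

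Within each library the count of Insig1 over that of Insig2 was 1.90, 1.96 and 1.87 in the puro group and 3.93, 4.24 and 3.83 in the Prdm16 group, so the balance of the pair shifted in every library. With chromosome medians removed Srebf2 (chromosome 15) had 0.84, Insig1 (chromosome 5) 0.27 and Scap (chromosome 9) −0.21, all still called. The promoters of the opposed INSIG pair are shown because they moved in opposite directions; capitals mark CCAAT or ATTGG, and the entry for Insig2 is the most upstream of its 3.
Insig1 (chr5:28071162-28071411, plus strand): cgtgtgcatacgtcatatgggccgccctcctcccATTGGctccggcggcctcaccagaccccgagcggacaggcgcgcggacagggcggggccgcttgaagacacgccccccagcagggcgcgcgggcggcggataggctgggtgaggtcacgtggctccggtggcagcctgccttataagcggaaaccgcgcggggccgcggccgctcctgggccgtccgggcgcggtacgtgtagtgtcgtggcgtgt
Insig2 (chr1:121332590-121332839, minus strand): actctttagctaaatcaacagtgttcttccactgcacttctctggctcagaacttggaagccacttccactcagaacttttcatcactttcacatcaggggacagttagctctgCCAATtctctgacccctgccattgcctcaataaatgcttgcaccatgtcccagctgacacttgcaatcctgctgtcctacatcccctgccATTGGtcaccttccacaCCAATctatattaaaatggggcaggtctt

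Insig1 held 1 CCAAT match in its single entry. Insig2 held 3 in the entry shown and 0 in each of its other 2 entries, so a comparison of the pair depends on the start that is used.

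Of the 4 genes of uptake and intracellular transport, 2 were higher and 2 lower, beside 37.5% and 38.0% of all tested genes. Their summed level was 1083, 1105 and 1088 CPM in the puro against 588, 572 and 597 CPM in the Prdm16 libraries, mostly through Npc2. The NPC proteins hand cholesterol out of the lysosome after lipoprotein uptake, the soluble Npc2 passing it to the membrane protein Npc1, and both fell. Npc2 was at 798, 822 and 814 CPM in the puro and at 312, 281 and 298 CPM in the Prdm16 libraries (2.73-fold lower, log2 fold change −1.45 ± 0.04, adjusted p = 1.02e-10). Npc1 went from 115, 115 and 109.9 CPM to 61.1, 65.4 and 66.7 CPM (−0.82 ± 0.04, adjusted p = 2.04e-08). Npc1 lies on chromosome 18, and with that chromosome's median removed it had −0.41 (adjusted p = 8.36e-06), while Npc2 on chromosome 12 had −1.38.

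The other transport genes rose. Scarb1, the scavenger receptor that exchanges cholesterol esters with high-density lipoprotein, was at 91.2, 90.4 and 94.8 CPM against 129.6, 124 and 133 CPM (0.48 ± 0.04, adjusted p = 8.89e-07). Stard4, a soluble sterol carrier and SREBP2 target, was at 78.4, 77.9 and 69.2 CPM against 84.5, 102 and 99.1 CPM (0.34 ± 0.07, adjusted p = 0.00125). With chromosome medians removed, Scarb1 had 0.30 and Stard4 0.75. The 19 tested genes counted here as SREBP2-driven, which are the synthesis enzymes with Insig1 and Stard4, thus had 17 higher, 1 lower and 1 not passing, with a median of 0.54. Of the uptake and transport genes, Npc1 and Npc2, which fell, and Scarb1, which rose, were not counted in this set.

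**Figure D3:**
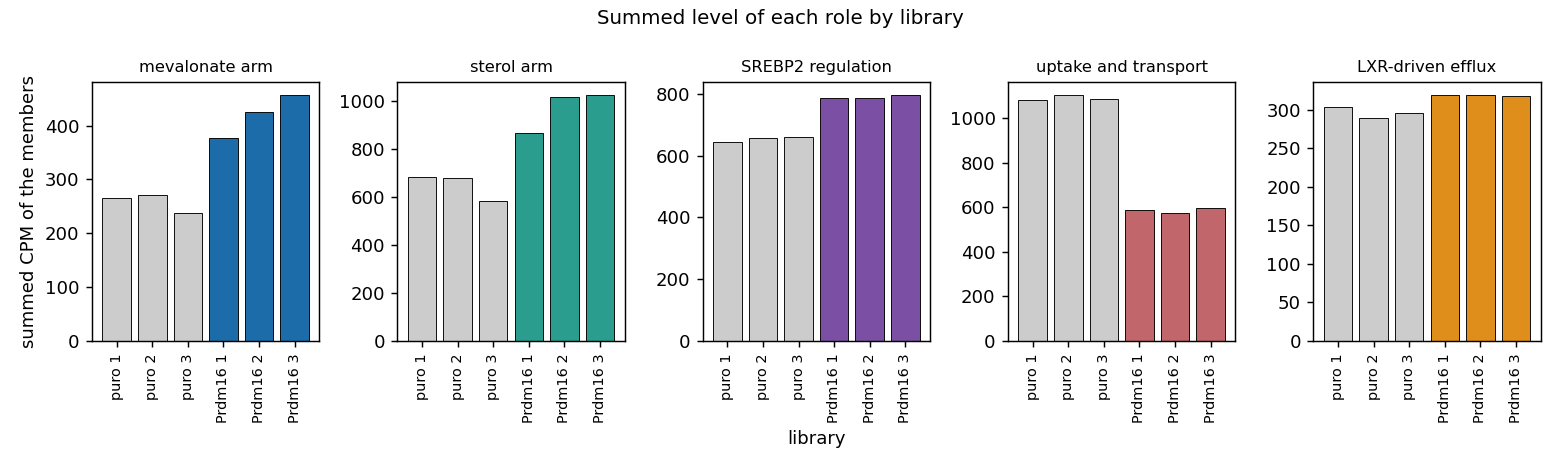
Bars give the summed CPM of the members of each role (vertical axis, from 0, with its own scale per panel) in each library (horizontal axis); grey bars are puro and coloured bars Prdm16. The mevalonate and sterol arms are higher in all Prdm16 libraries, and uptake and transport falls from 1083 to 1105 CPM to 572 to 597 CPM. The LXR-driven efflux sum stays between 289.98 and 320 CPM, and it includes Lpcat3, which rose, and Abcg1, which fell.

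The LXR-driven genes did not move as a group: 1 member rose, 1 fell and 3 missed the threshold, with a median log2 fold change of −0.03. Among all tested genes 37.5% were higher and 38.0% lower. Abca1, which loads cholesterol onto lipid-poor apolipoprotein, was at 143, 129 and 137 CPM in the puro and at 137, 135 and 129 CPM in the Prdm16 libraries. Its groups overlapped, and the log2 fold change of −0.03 ± 0.04 (adjusted p = 0.538) had a 95% interval from −0.13 to 0.07. Abcg1, which exports cholesterol to high-density lipoprotein, fell from 16.9, 18.5 and 16.7 CPM to 4.83, 5.39 and 5.06 CPM (3.41-fold lower, −1.77 ± 0.08, adjusted p = 3.90e-09), the largest change in size among the members. The count of Abca1 over that of Abcg1 was 8.47, 6.998 and 8.21 in the puro and 28.3, 24.97 and 25.6 in the Prdm16 libraries. Macrophages, whose markers summed to 15.4 CPM at most, also express Abcg1. Of their 3 tested markers 2, Cd14 and Lyz2, fell, while Cd68 did not pass (0.26, adjusted p = 0.0521). Most of the puro sum was Cd14 and Cd68, at means of 9.17 and 3.85 CPM. Ptprc had 0 counts in the puro libraries, and Csf1r, Itgam and Mrc1 were too low to be tested. The part of macrophages in the fall of Abcg1 was not tested.

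Lpcat3, the acyltransferase that places polyunsaturated chains in phospholipids, rose from 86.9, 85.7 and 83.5 CPM to 122, 125 and 128 CPM (0.55 ± 0.04, adjusted p = 1.57e-07). Mylip was at 55.1, 54.7 and 56.9 CPM against 53.3, 53.1 and 52.9 CPM. All 3 Prdm16 values lay just below the puro values, but the log2 fold change of −0.07 ± 0.04 did not pass (adjusted p = 0.125; 95% interval −0.15 to 0.02). Apoe, the acceptor apolipoprotein, was low, at 1.39, 1.89 and 1.97 CPM against 3.18, 1.83 and 2.13 CPM, and its groups overlapped (0.45 ± 0.22, adjusted p = 0.0823; 95% interval −0.03 to 0.94). Without Prdm16 replicate 2 it had 0.60 and passed (adjusted p = 0.0317). Soat1, which esterifies surplus cholesterol, was at 78.8, 74.8 and 69.3 CPM against 71.0, 71.4 and 66.7 CPM and did not pass (−0.09 ± 0.05, adjusted p = 0.128; 95% interval −0.21 to 0.02). Without puro replicate 3 it had −0.14 and passed (adjusted p = 0.0151).

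Set side by side, 17 of 19 SREBP2-driven and 1 of 5 LXR-driven genes were called higher, where 37.5% of all tested genes were. Called lower were 1 of 19 and 1 of 5, where 38.0% of all tested genes were. The 5 LXR-driven genes are too few to set their shares apart from those of all tested genes. The summed level of the 5 LXR-driven genes was 304, 290 and 296 CPM in the puro and 320, 320 and 318 CPM in the Prdm16 libraries. The ratio of means was 1.08, against 1.49 for the SREBP2-driven genes. The only called rise in this sum was that of Lpcat3, a phospholipid acyltransferase and not an exporter (mean 85.4 to 125 CPM). Mean levels of Abca1, Abcg1 and Mylip were lower, with only Abcg1 called (17.4 to 5.09 CPM), and Apoe was higher without passing. The 2 sets share no gene, neither holds Npc1, Npc2 or Scarb1, and no test was made between them.

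Other genes of sterol metabolism, from lists chosen by role, were set beside these changes. The counts of each list are to be read beside the 37.5% higher and 38.0% lower among all tested genes. Fatty acid genes that SREBPs also drive rose in 12 of 14 tested members and fell in 2, with a median of 0.80. The desaturase Scd2 stood at 1176 ± 77.6 CPM in puro and 3401 ± 231 CPM in Prdm16 libraries (SD, n = 3) and rose by 1.53 ± 0.06 in log2 (adjusted p = 1.22e-09), and the elongases Elovl6 and Elovl5 had 1.87 ± 0.08 and 1.14 ± 0.04. Srebf1, which encodes the sister factor of SREBP2 and is named here for that role after its values were seen, had 0.56 ± 0.08. The 2 that fell, also named afterwards, were Me1 (−0.41 ± 0.04) and the acyltransferase Gpam (−0.45 ± 0.04).

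The isoprenoid branch draws on farnesyl pyrophosphate for ubiquinone, dolichol and protein prenylation. Of its 14 genes 6 were higher, 5 lower and 3 uncalled, and the median was 0.05. These shares (42.9% higher and 35.7% lower) were near the 37.5% and 38.0% of all tested genes. Rce1, the protease that trims prenylated proteins, had 0.83 ± 0.05, the prenyltransferase subunits Fnta 0.40 ± 0.04 and Rabggtb 0.34 ± 0.04. Genes of SREBP cleavage and sterol-regulated degradation had 4 higher, 4 lower and 4 not passing among 12, with a median of 0.03. The ubiquitin ligases Rnf145 and Rnf139 moved apart, at 0.66 ± 0.04 and −0.52 ± 0.04, and the scaffold Erlin1 had 0.46 ± 0.04.

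The LXR and RXR receptors and other LXR targets had 2 higher, 5 lower and 1 not passing among 8, with a median of −0.30. The targets Smpdl3a and Pltp fell (−0.83 ± 0.06 and −0.83 ± 0.07) and Arl4c rose (0.47 ± 0.05). The receptors themselves, named after their values were seen, were at 53.1 ± 7.92 and 50.4 ± 5.94 CPM for Nr1h2 (SD, n = 3; −0.07 ± 0.10, adjusted p = 0.528) and at 1.18 ± 0.241 and 0.805 ± 0.133 CPM for Nr1h3 (−0.54 ± 0.22, adjusted p = 0.0444). Oxysterol and ester enzymes had 3 higher, 6 lower and 1 not passing among 10 (median −0.50). The ester hydrolase Nceh1 had 0.89 ± 0.06, the hormone-sensitive lipase Lipe −0.77 ± 0.07, and the sterol sulfotransferase Sult2b1 rose from 0.828 ± 0.180 to 3.08 ± 0.229 CPM (SD, n = 3; 1.89 ± 0.17).

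Other lipoprotein receptors and lysosomal genes had 4 higher, 4 lower and 1 not passing among 9, with a median of −0.03. The large endocytic receptor Lrp1 fell from 1856 ± 60.6 to 1124 ± 42.6 CPM (SD, n = 3; −0.72 ± 0.04, adjusted p = 2.48e-08), whereas the very-low-density lipoprotein receptor Vldlr rose from 21.4 ± 1.35 to 59.9 ± 3.03 CPM (1.48 ± 0.06) and the lysosomal membrane protein Scarb2 had 0.74 ± 0.03. Sterol transfer proteins had 9 higher, 5 lower and 4 not passing among 18, with a median of 0.17. Oxysterol-binding proteins Osbp and Osbpl3 rose (0.76 ± 0.04 and 1.65 ± 0.04). Gramd1b, which moves cholesterol from the plasma membrane to the endoplasmic reticulum, fell from 18.3, 17.5 and 16.7 CPM to 2.05, 2.25 and 2.28 CPM (−2.998 ± 0.09, adjusted p = 1.22e-10), further than any member of the synthesis, uptake and efflux set.

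**Figure D4:**
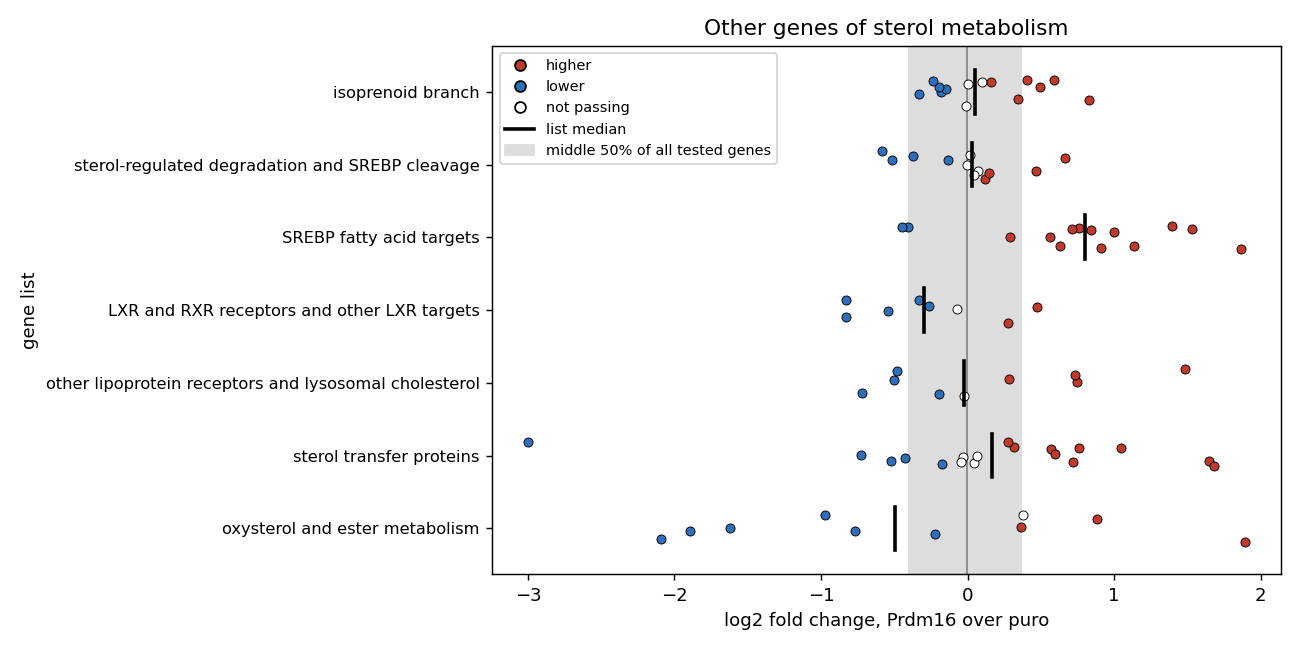
Each point is the log2 fold change of Prdm16 over puro (horizontal axis) of a tested gene in 1 of 7 other lists of sterol metabolism (vertical axis); red is higher, blue lower, white not passing, black bars are list medians and the grey band holds the middle 50% of all tested genes, from −0.40 to 0.36. The median of the SREBP fatty acid targets (0.80) lies above the band, that of oxysterol and ester metabolism (−0.50) below it, and the other medians lie inside it.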

How the data were processed

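Polyadenylated RNA of 3 puro and 3 Prdm16 libraries was compared. The authors deposited raw, unnormalized counts for each gene symbol. The submitters' processing notes name STAR, featureCounts, Subread and the build mm9; versions, annotation, strand setting and treatment of shared reads are not stated there. Groups and replicate numbers come from the sample labels.

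In edgeR 4.0.16 (R 4.3.3), filterByExpr kept 13805 of 24197 genes, libraries were scaled by TMM, and the quasi-likelihood test, two-sided, was applied to Prdm16 against puro at a Benjamini-Hochberg adjusted p of 0.05, after the fit was tested on simulated data. SE and 95% intervals were derived from the test's F value. The common biological coefficient of variation was 4.78%. Replicate libraries differed by 2.08 to 8.85 chi-square per gene, where sampling noise alone gives about 1, and each was counted as a replicate. Intervals cover library spread only.

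Chromosome, transcript length and exon overlap came by symbol from GENCODE M21 and promoters from RefSeq, both on GRCm38, and the 30 bases after the start of each of the 6 printed promoters lay sense to a transcript of the gene; a chromosome was found for 99.7% and a length for 99.3% of tested genes. Alternatives were RLE and upper-quartile scaling, other filters on low counts, DESeq2 1.42.0, limma-voom (limma 3.58.1), a replicate block, stricter thresholds, Prdm16 left out, removal of chromosome medians or of length or GC trends, and leaving out libraries. All members are named, and from each other list the 3 tested genes with the smallest p. Members and lists were chosen with earlier results of these data known. Other genes of the pathway are not reported here.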

Additional observations from a re-analysis of the deposited data

How the results depend on the processing

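The 26 members called higher or lower kept their direction and their call under every alternative except a required log2 size of at least 1, under which 4 of them stayed. At that size the counts were 1338 higher and 1677 lower over all genes, 0 higher and 0 lower in the mevalonate arm, 1 higher and 1 lower in the sterol arm and likewise among SREBP2-driven genes, 0 higher and 0 lower among the SREBP2 regulators, and 0 higher and 1 lower both in uptake and transport and in LXR-driven efflux. LXR-driven efflux had 2 higher without a filter on low counts, through Apoe (0.47, adjusted p = 0.048), and 1 to 2 when single libraries were left out; esterification had 0 to 1 lower when single libraries were left out and 1 lower without both puro replicate 3 and Prdm16 replicate 1. Signs turned only for genes that did not pass: Hsd17b7 had 0.0137 without puro replicate 1 and 0.0597 without Prdm16 replicate 1 (−0.1165 to 0.0597 over single libraries left out), and Abca1 had 0.0058 with the chromosome median removed and 0.0043 without puro replicate 1 (−0.0713 to 0.0043). No scaling moved the median of all genes by more than 0.018 in size. Deviations of same-numbered libraries from their group means had correlations of −0.36, 0.17 and −0.13. These values cannot decide whether the numbers pair the libraries, because deviations from a mean of 3 libraries are not independent. Between differently numbered libraries these correlations ran from −0.38 to 0.46. The highest was for puro replicate 3 with Prdm16 replicate 1, the libraries lowest for most synthesis enzymes, and a shared source was not tested. With a replicate block 17 SREBP2-driven genes were higher and 1 lower, with 5017 higher and 5072 lower over all genes. Values below a few CPM, as for Apoe and Nr1h3, are limited by depth.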
